A study of Mus musculus with 2 samples.

Results

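Sebaceous gland cells were examined in single-cell RNA profiles of mouse back skin from 1 control and 1 miR-205 inducible mouse. A cell was included when it had 201 to 4999 detected genes, under 10% mitochondrial UMIs (unique molecular identifiers, each counting 1 captured transcript), at least 5 UMIs summed over Awat2, Elovl3, Far2, Cidea and Pparg, and under 100 UMIs of Krt1 and Krt10 together. The rule selected 81 of 7564 kept cells, 34 of 3936 in the control library and 47 of 3628 in the miR-205 inducible library. The limit on Krt1 and Krt10 removed 0 cells. Because the cells were chosen by these transcripts, their levels against other cells are descriptions.

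Both mice carried a Krt14-H2B-GFP allele and were gender matched, with a labelled strain of C57BL/6, and skin was taken at postnatal day 53. In the inducible line, doxycycline switches on a pTRE2-miR-205 transgene through Krt14-rtTA, so induction is limited to cells that express, or recently expressed, the Krt14 driver. The transgene was made by injection into FVB mice, and the sources used here do not say which of several lines was profiled or which transgene the control lacked. Feeding with doxycycline began at postnatal day 49 and lasted 4 days. The extraction notes state it for both mice, whereas the control's treatment label reads untreated. Both libraries were prepared on the same chip, from sorted cells combined as epidermal, hair follicle and dermal fractions at 3, 5 and 2 parts. With 1 mouse per group no test of the induction was possible, and mouse and genotype cannot be told apart. Intervals below are exact 95% intervals and cover counting error only.

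The sebaceous gland is attached to the upper hair follicle. Its basal cells divide, move inward, fill with lipid droplets under the control of the nuclear receptor PPARγ, and finally burst to release sebum, a mixture rich in wax esters, triglycerides and sterol esters. Mouse sebocytes make fatty acids in the cytosol, lengthen and desaturate them with the Elovl and Scd enzymes, reduce some to fatty alcohols with Far2, and join alcohol and acid with the acyltransferases Awat1 and Awat2. The same cells make cholesterol through the mevalonate pathway, which also branches to isoprenoids.

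The induced microRNA is shown because its seed, bases 2 to 8 in capitals, sets which transcripts it can pair with. Its mature sequence in RefSeq lies at chr1:193507503-193507524 on the minus strand of GRCm38.p6, the release of the mm10 build named by the submitters.
mmu-miR-205-5p: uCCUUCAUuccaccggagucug
Counting from transcript 3′ ends does not measure the mature microRNA. Its annotated host transcript, 4631405K08Rik, was at 220.2 CPM (a gene's UMIs scaled to a sum of 1000000 over all genes; 163 UMIs) in control and 172.7 (184 UMIs) in inducible sebaceous cells, a log2 ratio of −0.35 (interval −0.66 to −0.04). Expression of the transgene therefore could not be checked in these cells.

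The cell filter treated sebaceous cells of the libraries unequally. Among barcodes that met the marker rule, 47 of 81 (58.02%, Clopper-Pearson interval 46.54 to 68.91) were left out in the control library and 19 of 66 (28.79%, 18.3 to 41.25) in the inducible library. Among barcodes that did not meet it, 12.59% and 14.7% were left out. In the control 44 of the 47 exceeded the mitochondrial limit alone, with a median over the 47 of 11.87% mitochondrial UMIs. In the inducible library 9 of the 19 exceeded that limit alone and 10 had 5000 or more genes. Kept sebaceous cells also lay near the limit, with median mitochondrial shares of 8.89% in control and 7.61% in inducible cells against 4.93% in the other kept cells of either library. Several results for the induction are therefore given also without either limit, a comparison chosen after seeing the data.

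**Figure D1:**
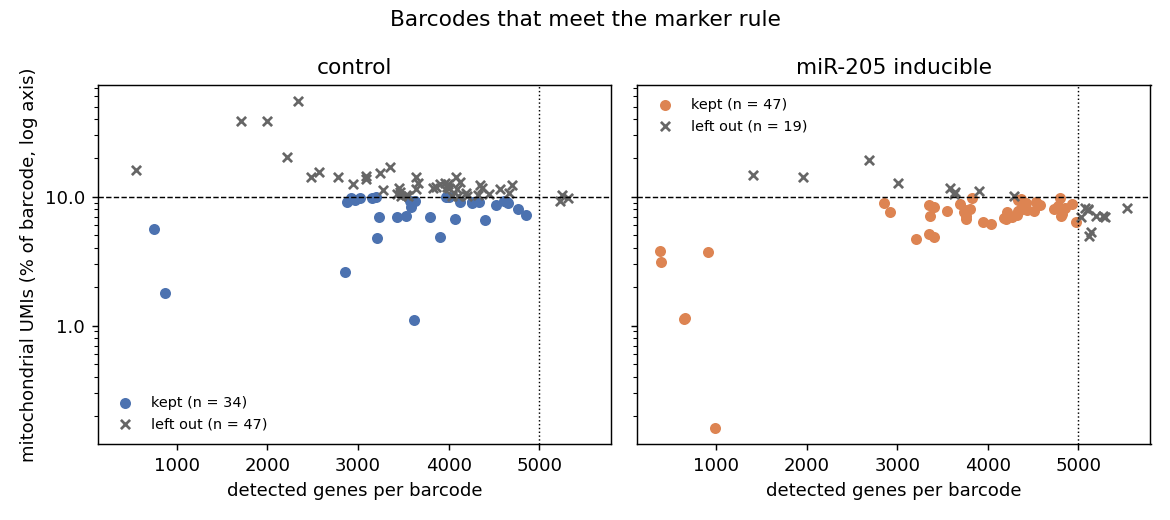
Detected genes (x axis) and percentage of mitochondrial UMIs (y axis, log scale) of every barcode that met the marker rule, circles kept and crosses left out, with dashed and dotted lines at the limits of 10% and 5000 genes. Crosses in the control panel sit mostly above the dashed line, and 10 of the 19 crosses in the inducible panel sit to the right of the dotted line.

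Depth was similar between libraries. Sebaceous cells had a median of 20909.5 UMIs in control (1508 to 35371) and 24137 in the inducible library (608 to 37580), against medians of 12157.5 and 11650 in other kept cells. The sums over sebaceous cells were 740280 and 1065390 UMIs. Of 11 barcodes present in both libraries, 0 were sebaceous. Scrublet, a doublet scorer, placed 0 control and 1 inducible sebaceous cell among the highest scores (165 and 145 barcodes). At the threshold, 7 kept cells had exactly 5 UMIs of the rule genes and 14 had 4; the median Scd1 level was 380.7 CPM in the former and 363.5 in the latter.

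Detection of the 5 rule genes is fixed by the rule, so Scd1 was the check of the label. Scd1, the main stearoyl-CoA desaturase of the gland and not a rule gene, was detected in 33 of 34 control and 46 of 47 inducible cells, whereas 16.44% and 17.98% of cells with at least 5 UMIs of Krt79, an upper follicle keratin, and outside the rule (578 and 495 cells) had a Scd1 UMI at median depths of 13597 and 14661. With every cell thinned to 2000 UMIs, Scd1 was found in 84.38% of 32 control and 90.7% of 43 inducible sebaceous cells against 6.47% and 6.73% of Krt79 cells, after leaving out 2, 4, 6 and 5 shallower cells. Detection can rest on 1 UMI: a control cell with 18766 UMIs and an inducible cell with 17709 held 1 Scd1 UMI each. Of the rule genes, Pparg was detected in 30 of 34 control and 38 of 47 inducible cells before thinning. Cidea was detected in 29 and 40, Far2 in 24 and 41, Elovl3 in 18 and 37, and Awat2 in 17 and 35. After thinning, the shares were 21.88% and 13.95% for Awat2, 12.5% and 23.26% for Elovl3, and 25% and 46.51% for Far2.

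Markers of other cell types were mostly near 0. Over sebaceous cells the 8 fibroblast markers summed to 47.3 CPM in control and 17.8 in inducible cells (4062 and 3947 in other kept cells), with 2 of the 8 at 0. The 10 adipocyte markers summed to 12.2 and 6.57 (8.27 and 7.22 in other kept cells), with 6 at 0. The 10 bulge and hair germ markers summed to 37.8 and 31.9, the 6 melanocyte markers to 2.7 and 0.94, and the 5 endothelial markers to 4.05 and 7.51. Immune markers summed to 2488 in control and 17.8 in inducible cells, upper follicle and duct markers to 6023 and 2358, and suprabasal epidermal markers to 5160 and 3528. Single control cells held most of the control immune sum and much of the control Krt17, Defb6 and Krtdap, as given next. Other genes of the last lists were spread over cells. Lgals7, of the suprabasal list, was at 2953 and 2975 CPM in 33 control and 47 inducible cells. Krt79, of the duct list, was at 1717 and 1670 in 33 and 44 cells.

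In all, 5 control cells were singled out after their values were seen, as holding at least 100 UMIs of Cd74, Krtdap, Defb6 or Hamp2. The first had 1342 UMIs of the antigen-presentation chain Cd74, 367 of H2-Aa, 279 of Il1b and 94 of Lyz2, with 5 UMIs of Pparg and 0 of Scd1, Cidea, Far2, Elovl3 and Awat2. The label does not hold for that cell. Another had 526 UMIs of Krtdap and 589 of Krt17 with 10 of Cidea, 15 of Scd1 and 3 of Plin2, among 18422 UMIs. Its label is uncertain. A further one had 429 of Krt17 and 257 of Defb6 with 25 of Cidea and 177 of Scd1. The remaining pair, with 28829 and 19348 UMIs, held 1483 and 514 UMIs of Hamp2 and is described with the last cells of the order below. The inducible library had no cell past this cut, which counts raw UMIs and so can miss shallow cells. An inducible cell with 744 UMIs in all held 45 of Hamp2. Several counts and ratios below are given also without these 5 cells, while the marker sums above include them. Leaving them out takes cells from control only.

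Lipid genes separated sebaceous cells from the other kept cells by large factors. Of 3853 genes with at least 50 UMIs over all sebaceous cells, 832 (21.6%) were at least 2-fold higher than in the other kept cells in both libraries and 288 (7.47%) at least 2-fold lower. Because a gene had to reach 50 UMIs in the sebaceous cells, genes low in them and high elsewhere did not enter (0 of 8 fibroblast and 0 of 10 bulge and hair germ markers), and the balance of higher and lower genes is partly set by that minimum. In the rule's own markers and Scd1 the log2 ratio was between 5.88 and 10.21, as the rule fixes for 5 of the 6. Among genes outside the rule with at least 200 UMIs, the 15 with the highest ratio in the library where it was lower comprised Serpina3j, Hsd3b6, Fa2h, Gm5678, Cyp17a1, Scd3, Clstn3, Cyp2g1, Serpina3b, Scd1, Acaa1b, Soat1, Hamp2, Carns1 and Elovl6. Hsd3b6, a steroid dehydrogenase, was at 95.9 and 133.3 CPM in sebaceous cells against 0.1 and 0.181 in other cells. Fa2h, which makes 2-hydroxy fatty acids, was at 210.7 and 552.8 against 0.462 and 0.88. Soat1, which esterifies cholesterol for storage, was at 763.2 and 899.2 against 6.14 and 6.84. Elovl6, which lengthens 16-carbon acids, was at 1848 and 1416 against 14.4 and 12.5.

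The lipid gene lists are described with the rule genes taken out and for the members that reached 50 UMIs in the sebaceous cells, a minimum that itself favours genes high in them. Of 29 listed genes of fatty acid synthesis, elongation and desaturation 18 entered, and 16 were at least 2-fold higher in both libraries, beside 21.6% of all genes. For wax ester and triglyceride synthesis 8 of 22 entered and 6 were higher, and for the lipid droplet coat and lipolysis 8 of 20 entered and 4 were higher. With no rule gene among them, 18 of 20 peroxisomal genes that entered were higher (30 listed), 14 of 22 of cholesterol synthesis and uptake (27 listed) and 10 of 14 of fatty acid uptake and carriers (21 listed). A wider set of literature sebaceous markers gave 13 of 14. The median log2 ratio over other cells was 2.88 in control and 3.24 in inducible cells for the peroxisomal genes and 1.32 and 2.18 for the cholesterol genes, beside 0.26 and 0.25 for all genes. Plin2, the coat protein of lipid droplets, was at 3984 and 4030 CPM against 96.9 and 123.1. Mgst1, a microsomal glutathione transferase, was at 3796 and 6367 against 75.1 and 99.3. Of 12 measured transcription factors and receptors known in sebocytes other than Pparg, 5 were at least 2-fold higher, among them Cebpa, a lipogenic transcription factor, at 305.3 and 452.4 against 81.7 and 95.6. Sox9 was lower in sebaceous cells, with log2 ratios of −1.15 and −2.09.

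Epidermal structural genes went the other way. Of 10 measured basal keratinocyte genes, 6 were at least 2-fold lower in both libraries and 0 higher, beside 7.47% and 21.6% of all genes. Krt15 was at 137.8 and 291 CPM against 3372 and 4351, while Krt14, which drives the transgene, was at 5264 and 4687 against 9322 and 7267. Of 37 measured actin cytoskeleton genes, 16 were at least 2-fold lower and 0 higher, beside the same shares, with summed levels of 17140.8 and 12255.6 against 35210.2 and 31369.1. Among them Actb was at 3296 and 2808 against 7806 and 6408.

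The sebaceous cells varied along the share of UMIs on the rule genes, which ran from 2.1 to 164.5 per 10000 UMIs. Cells of both libraries together were cut into tertiles by that share, giving 14, 11 and 9 control and 13, 16 and 18 inducible cells from lower to upper. The order was set by the rule genes, so the gradient is a description. Of the 3853 genes, 388 (10.1%) were at least 2-fold higher in the upper than the lower tertile in both libraries and 360 (9.34%) at least 2-fold lower.

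Basal and cytoskeletal transcripts were highest in the lower tertile. The 10 genes with the lowest ratio of upper to lower tertile were Cyr61, Thbs1, Ifitm3, S100a6, Mt2, Ier3, Tmsb10, Plet1, Krt17 and Fth1. Cyr61, a matricellular protein, went from 1296 to 24.1 CPM in control and from 1062 to 7.91 in inducible cells. Krt15 went from 229.8 to 53.1 and from 933.8 to 26.4. Pparg itself was lower in the upper tertile, at 161.5 against 72.3 in control and 177.6 against 81.8 in inducible cells. It is a rule gene, and most cells of the lower tertile in each library entered only because its UMIs were counted. With Pparg out of the rule, 25 control and 40 inducible cells remained. The rule therefore sets part of the Pparg level in the lower tertile. The basal, cytoskeletal and cell cycle levels of that tertile rest partly on the same cells. Genes at least 2-fold lower in the upper tertile of both libraries numbered 360, and 180 with Pparg out of the rule. Actin cytoskeleton genes summed to 24206.9 in the lower and 10546.8 in the upper tertile of control, and to 16897.4 and 9823 in inducible cells. Of the 37, 0 were at least 2-fold higher in the upper tertile of both libraries and 10 lower, beside 10.1% and 9.34% of all genes. Of 10 basal keratinocyte genes, 7 were lower. The lower tertile of control includes the cell rich in Cd74 described above.

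Cell cycle transcripts were found mainly in the lower tertile. Mki67, a marker of dividing cells, had 12 UMIs in 3 control cells and 34 UMIs in 4 inducible cells, and all 7 cells lay in the lower tertile. Top2a, a topoisomerase of dividing cells, had 18 of its 19 control UMIs and 58 of its 60 inducible UMIs there. Most of the 7 cells with Mki67 had 5 to 7 rule UMIs and fell below 5 once Pparg was left out. The share of sebaceous cells with a Mki67 UMI was 8.82% in control (1.86 to 23.68) and 8.51% in inducible cells (2.37 to 20.38). It was 2.6% and 1.01% in Krt79 cells, at lower median depth (13597 and 14661 against 20909.5 and 24137 UMIs). After thinning to 2000 UMIs the share in sebaceous cells was 0 of 32 control and 2 of 43 (4.65%) inducible cells. The 0 allows a share of up to 9.38% by the limit of 3 counts (exact upper bound 10.89%). In thinned Krt79 cells the share was 0.7% and 0.2%. No difference between libraries was detectable at this depth. Among barcodes left out for having 5000 or more genes, 10 in the inducible library held 52 Mki67 UMIs, all in 3 barcodes, and 3 in the control held 0.

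Lipid synthesis genes were highest in the upper tertile. Without the rule genes, which set the order, 15 of 18 genes of fatty acid synthesis, elongation and desaturation were at least 2-fold higher there in both libraries, beside 10.1% of all genes. So were 16 of 22 cholesterol genes, 15 of 20 peroxisomal genes and 5 of 8 wax ester and triglyceride genes. The 10 genes with the highest ratio were Elovl4, Hamp2, Serpina3j, Cyp2g1, Serpina3b, Carns1, Acer1, Fa2h, Ly6g6c and Nupr1. Elovl4 was seen in 6 control and 8 inducible cells, and 1 cell held 76.7% of its control UMIs and 82.06% of its inducible UMIs. Of the control UMIs, 1 cell held 73.6% for Hamp2, 65.74% for Serpina3j, 54.68% for Ly6g6c and 53.48% for Nupr1. For Cyp2g1, 1 cell held 46.27% of control and 52.76% of inducible UMIs. For Serpina3b, Carns1, Acer1 and Fa2h the highest share in 1 control cell was 18.52% to 42.83%. Fabp5, a fatty acid binding protein, went from 114.9 to 9066 CPM in control and from 697.1 to 13481.2 in inducible cells. Acer1, an alkaline ceramidase, went from 3.59 to 409.9 and from 3.29 to 427.2. Plin2 was much the same in lower and upper cells, at 3978 and 4355 in control and 3150 and 3871 in inducible cells.

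**Figure D2:**
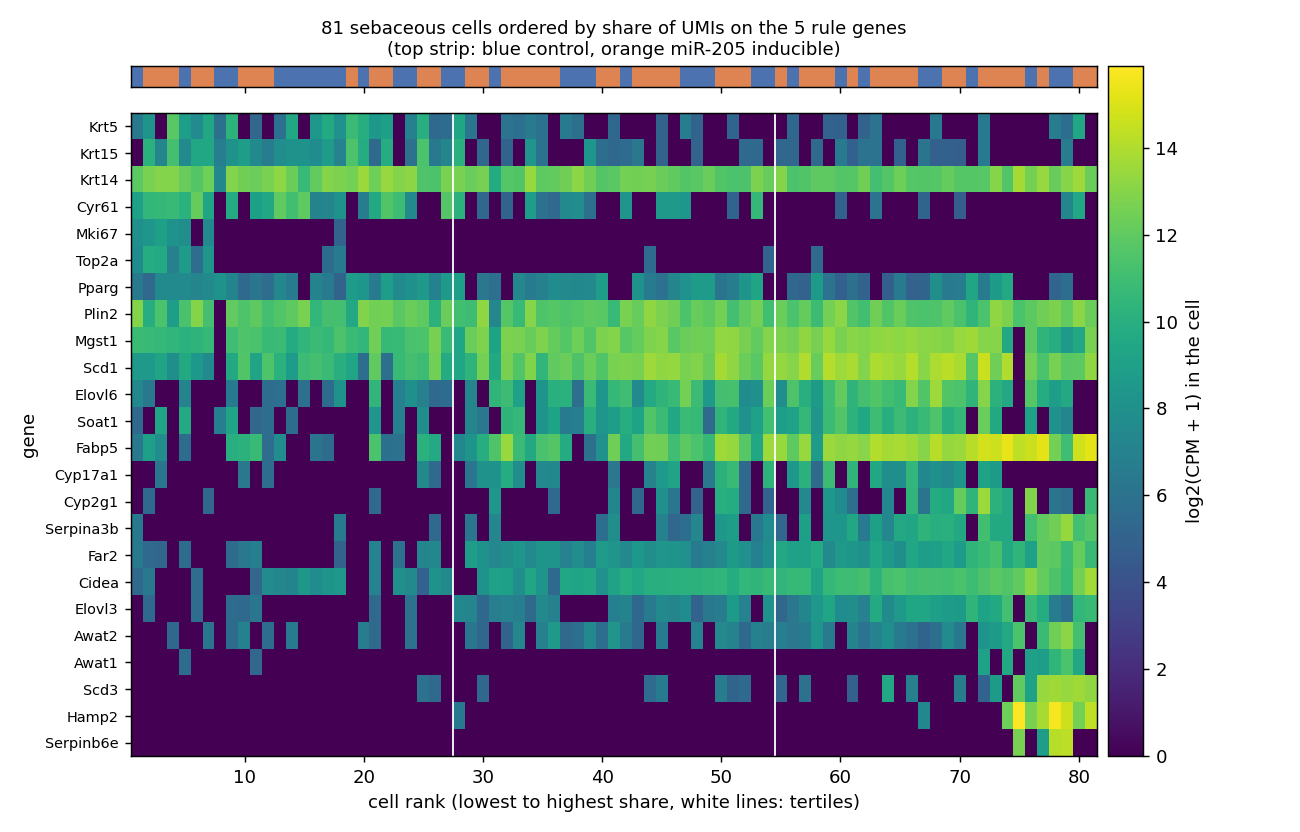
Level of 24 genes (rows, log2 of CPM plus 1 in each cell) in the 81 sebaceous cells (columns) ordered by the share of UMIs on the 5 rule genes, with the library in the top strip. Mki67 and Top2a lie at the left, Scd1, Fabp5 and Cidea brighten to the right, and Hamp2 and Serpinb6e are bright in the last cells, while Scd3 also appears faintly earlier.

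**Figure D3:**
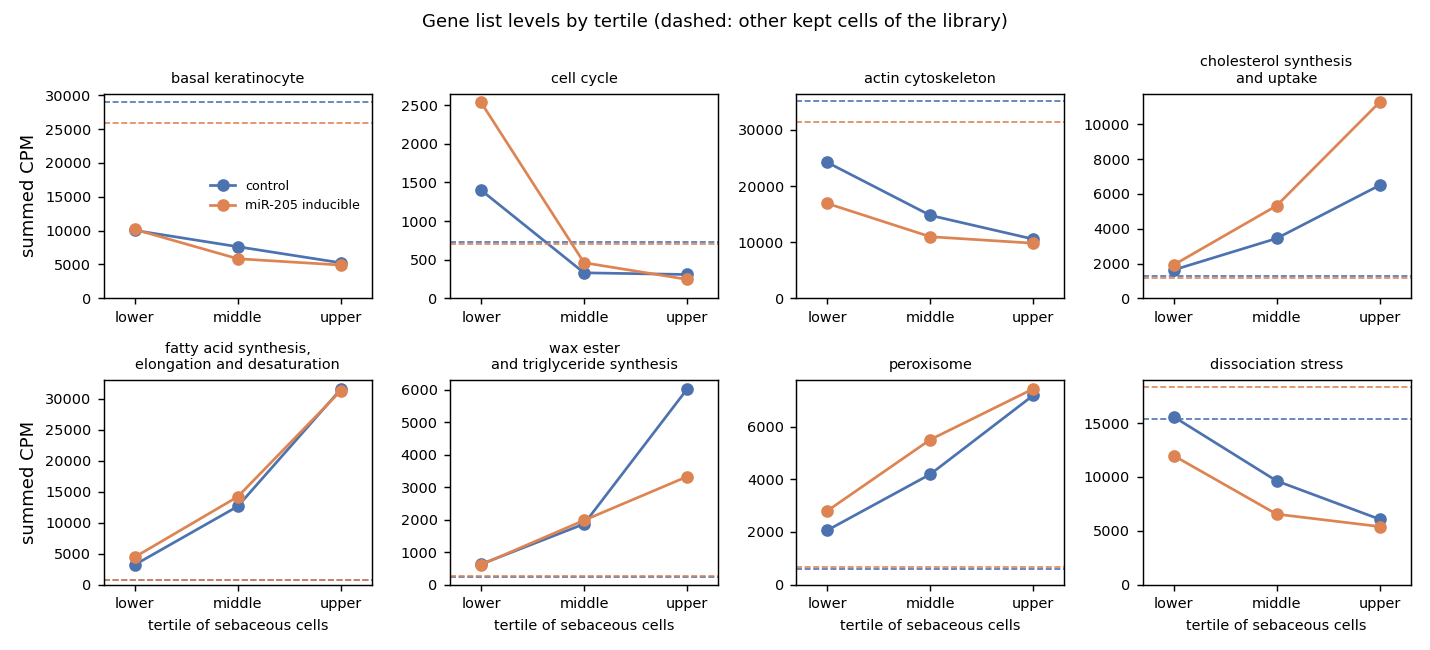
Summed CPM of 8 gene lists in the lower, middle and upper tertile of sebaceous cells of each library, each panel with its own scale from 0, and dashed lines for the other kept cells. Lipid lists climb from lower to upper while basal, cell cycle, actin and dissociation stress lists decline.

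Some genes were concentrated in a few cells at the end of the order. The order itself places these cells there: Awat2 is a rule gene, and a shallow cell needs a high share to hold 5 rule UMIs. Hamp2, a hepcidin gene (chr7:30922372-30924181 in RefSeq GRCm38.p6), had 2015 UMIs in 5 control cells, 99.11% of them in the pair singled out above, and 105 UMIs in 5 inducible cells. Scd3, a desaturase gene of the cluster on chromosome 19 that ends with Scd1 (204.4 kb from the start of Scd3, with Scd2 and Scd4 between), had 585 UMIs in 3 control and 103 in 20 inducible cells. Serpinb6e had 921 UMIs in 2 control cells and 6 UMIs in 2 inducible cells. Awat1, which lies with Awat2 in 176 kb of the X chromosome with Dgat2l6 between them, had 92 UMIs in 4 control and 22 in 5 inducible cells. Awat2 itself had 372 control UMIs, 91.13% in the same pair, against 116 spread over 35 inducible cells.

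In the inducible library Hamp2 and Serpinb6e were found in shallow cells alone. All 105 Hamp2 UMIs came from 5 of the 6 inducible cells with under 3000 UMIs, which held 8686 UMIs in all and had 0.161% to 3.76% mitochondrial UMIs. In those 6 cells Hamp2 was at 12088.4 CPM, Scd3 at 5872 and Fabp5 at 32235.8, against 0, 49.2 and 6524 in the 41 deeper inducible cells. The 2 shallow control cells had Hamp2 at 3591 and Fabp5 at 21843.2. The singled-out control pair had Hamp2 at 41451.3 and Scd3 at 12122 with Fabp5 at 4421. Awat2, Awat1 and Scd3 were also in deeper inducible cells, which held 105 of 116 Awat2 UMIs, 19 of 22 Awat1 UMIs and 52 of 103 Scd3 UMIs. Among these deeper cells 1 held 18 of the Awat1 UMIs and another held 26 of the Scd3 UMIs. The singled-out pair decides the ratios between libraries: the log2 ratio of Awat2 was −2.20 over all cells and 1.30 without the singled-out cells, and that of Hamp2 −4.78 and 1.73. The shallow inducible cells that held Hamp2 stay in the second value of each gene.

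Sebaceous cells made up 0.864% of kept cells in control (0.599 to 1.21) and 1.29% in the inducible library (0.953 to 1.72). The difference was 0.432 percentage points (Newcombe interval −0.0357 to 0.92), and it turned to −0.234 points without the limits on mitochondrial UMIs and genes, with 81 of 4545 control and 66 of 4264 inducible barcodes. The sort to fixed fractions can set these shares.

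Expression in inducible over control sebaceous cells was then compared, since the study asks what miR-205 induction changes in skin cells. The log2 ratio used 0.5 added UMI, and its median over the 3853 genes was −0.01. Of these, 96 (2.49%) were at least 2-fold higher and 231 (6%) at least 2-fold lower. Without the 5 singled-out cells the higher genes numbered 109 and the lower 116, and without the filter limits 113 and 152. The 5 lowest ratios among genes with at least 200 UMIs were those of Il1b (280 against 0 UMIs), H2-Aa (368 against 2), Serpinb6e, H2-Eb1 (348 against 3) and Cd74 (1346 against 15), with 98.56% or more of the control UMIs of Il1b, H2-Aa, H2-Eb1 and Cd74 in 1 singled-out cell and those of Serpinb6e in the Hamp2-high pair.

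The 5 highest were Gm8797, Cyp2g1, Cyp17a1, Oat and Carns1. Gm8797, a predicted gene, was at 21.6 and 676.7 CPM and had a like log2 ratio in the other kept cells, 4.65 against 4.92. Oat, ornithine aminotransferase of the mitochondrion, was at 397.1 and 1837 (log2 ratio 2.21, 2.03 to 2.39), with 29 of 34 and 42 of 47 cells holding a UMI and a log2 ratio of −0.12 in other kept cells. Its median over cells was 267.8 and 1081, and its log2 ratio was 1.8 without the filter limits. Cyp17a1, a steroid hydroxylase and lyase, was detected in 6 control and 30 inducible cells, at 87.8 and 410.2. The log2 ratio of Cyp17a1 was 2.21, or 2.63 without the filter limits, and 1 cell held 53.85% of its control UMIs. In other kept cells its log2 ratio was 1.67, at 0.221 and 0.722 CPM. Cyp2g1, a cytochrome P450, was at 90.5 and 679.6, with 75.97% of its inducible UMIs in 2 cells, and its log2 ratio was 2.90, or 1.81 without the filter limits. Carns1, carnosine synthase, was at 62.1 and 288.2 in 7 and 17 cells, with a log2 ratio of 2.20, or 1.09 without the filter limits.

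Genes of cholesterol synthesis and uptake were higher in inducible sebaceous cells. The median log2 ratio of 22 measured genes was 0.90, with 20 above 0. Of the 22, 7 were at least 2-fold higher and 1 at least 2-fold lower, beside 2.49% and 6% of all genes. In other kept cells the median was −0.07 over 26 genes, in Krt79 cells 0.03 over 25, and in cells rich in Krt5 and Krt14 −0.11 over 26. Fdps, which makes farnesyl diphosphate, was at 349.9 CPM in control and 1032 in inducible cells (log2 ratio 1.56, 1.36 to 1.76). Fdft1, squalene synthase, was at 94.6 and 244. Mvd, of the mevalonate pathway, was at 48.6 and 123. Insig2, which retains the sterol sensor in the endoplasmic reticulum, was lower at 244.5 and 78.8, with 51.38% of its control UMIs in 1 cell and a log2 ratio of 0.21 without the singled-out cells.

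The per-cell sum over the list had quartiles of 1483, 2607 and 4065 CPM in control and 1966, 4474 and 8851 in inducible cells, and the ranges overlapped. Within tertiles the list median was −0.01 in the lower, 0.47 in the middle and 0.90 in the upper. It was 0.84 without the 5 singled-out cells. Without the filter limits it was 0.38, with 19 of 24 genes above 0 and 0 at least 2-fold higher. Control barcodes left out by the filter carried more of these transcripts (5519 summed CPM) than those kept (3613), whereas in the inducible library the values were 5614 and 6462. The 7 genes that were at least 2-fold higher among kept cells were under 2-fold without the limits.

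The promoters of 2 genes of the pathway are shown because the genes stood together and because CCAAT boxes, the sites of NF-Y, commonly flank sterol-responsive elements. Windows from 250 bases before to 50 after the start are from RefSeq GRCm38.p6, with CCAAT on either strand (ATTGG on the other) and the sterol element TCACCCCAC in capitals.
Hmgcs1 promoter, chr13:119690101-119690400, plus strand: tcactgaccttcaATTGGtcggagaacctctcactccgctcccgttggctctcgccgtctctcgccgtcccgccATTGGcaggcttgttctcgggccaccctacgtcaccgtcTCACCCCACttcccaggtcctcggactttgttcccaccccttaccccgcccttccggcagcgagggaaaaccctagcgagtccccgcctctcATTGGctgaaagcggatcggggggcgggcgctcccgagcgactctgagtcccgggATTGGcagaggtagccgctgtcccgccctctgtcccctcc
Idi1 promoter, chr13:8885356-8885655, plus strand: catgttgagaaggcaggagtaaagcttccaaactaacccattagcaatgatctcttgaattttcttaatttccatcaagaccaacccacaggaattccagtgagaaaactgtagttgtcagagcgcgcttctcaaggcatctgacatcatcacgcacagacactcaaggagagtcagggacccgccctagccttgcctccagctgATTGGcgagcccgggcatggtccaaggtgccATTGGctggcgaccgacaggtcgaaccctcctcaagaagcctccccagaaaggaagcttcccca
Hmgcs1, a synthase of the mevalonate pathway, was at 305.3 and 569.7 CPM and Idi1, an isomerase before Fdps, at 152.6 and 313.5. The window of Hmgcs1 held 4 CCAAT boxes and 1 sterol element, and that of Idi1 held 2 boxes and 0 elements. Of the 27 listed genes 19 had a window, and 17 of these (89.47%) held CCAAT against 41.06% of 27025 gene symbols. The sterol element was in 1 of the 19 and in 0.614% of all. For fatty acid genes the share with CCAAT was 56% (14 of 25). A match describes letters only.

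**Figure D4:**
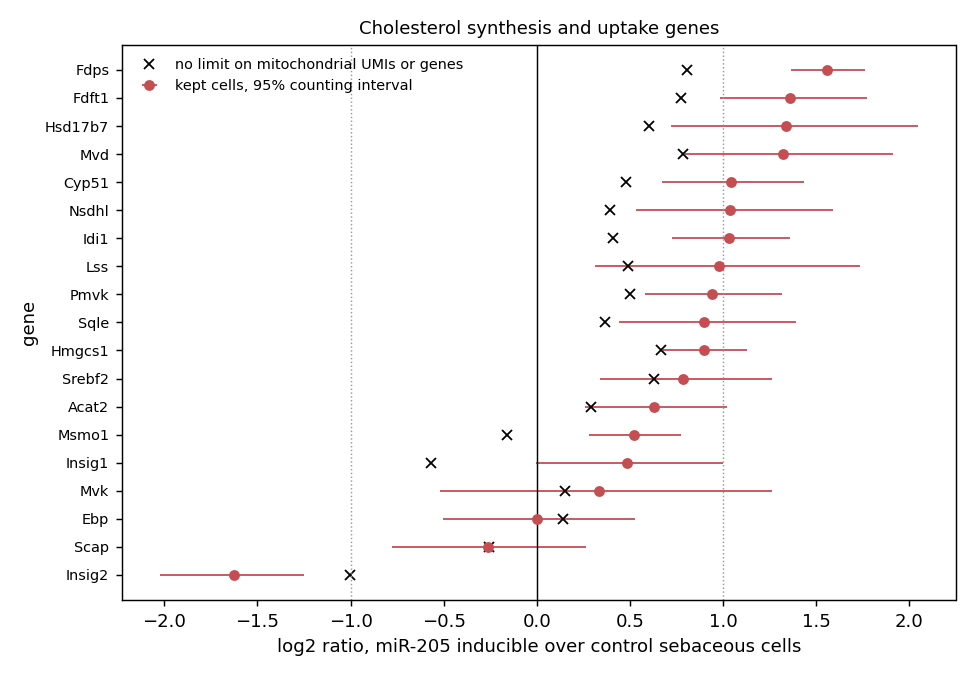
Log2 ratio of inducible over control sebaceous cells for 19 of the cholesterol synthesis and uptake genes (rows), circles for kept cells with 95% counting intervals and crosses without limits on mitochondrial UMIs or genes. Circles lie right of 0 for 17 genes, and crosses lie between the circle and 0 for most.

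Fatty acid genes gave a smaller and less uniform difference. Of 19 measured genes the median log2 ratio was 0.36, with 13 above 0. Of these genes 1 was at least 2-fold higher and 4 at least 2-fold lower, beside 2.49% and 6% of all genes. Me1, which supplies NADPH for lipogenesis, was at 356.6 and 716.2 CPM, and Fasn, fatty acid synthase, at 210.7 and 274.1. Scd1 was at 4890 and 8437 (log2 ratio 0.79, 0.73 to 0.84) with medians over cells of 3060 and 5691. Elovl6 was at 1848 and 1416. The 4 lower genes were Elovl1, Elovl5, Elovl7 and Scd3, and 1 control cell held 55.56% to 67.69% of the control UMIs of each. Without the 5 singled-out cells the list median was 0.69, and without the filter limits −0.06.

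Wax ester and triglyceride synthesis showed no common direction, with a median of −0.09 over 10 genes and 5 above 0. Of the 10, 2 were at least 2-fold higher and 4 lower, beside 2.49% and 6% of all genes. Far2 was at 351.2 and 359.5 CPM and Soat1 at 763.2 and 899.2. For Far2, 1 control cell held 42.31% of the control UMIs, and medians over cells were 119.8 and 300. Its log2 ratio was 0.03, or 1.04 without the 5 singled-out cells. Agpat2, an acyltransferase of triglyceride assembly, was at 60.8 and 154.9. Without the 5 singled-out cells the list median was 1.01, and without the filter limits −0.09 over 12 genes. The 9 lipid droplet genes had a median of 0.62, with 2 at least 2-fold higher, beside 2.49% of all genes. Mgll, which hydrolyses monoglycerides, was at 174.3 and 361.4 and Hilpda, an inhibitor of lipolysis, at 51.3 and 113.6. Plin2 was at 3984 and 4030 and Cidea at 1027 and 1015. The droplet median was 0.13 without the filter limits. Peroxisomal genes had a median of 0.19 over 20 and fatty acid uptake genes 0.18 over 14. Without the filter limits these medians were 0.13 over 23 and −0.10 over 15.

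Of 30 listed transcription factors and receptors, 13 had 50 UMIs, with a median log2 ratio of −0.09 and 0 past 2-fold, which is near the shares of all genes. From 20 UMIs, 21 entered, with 1 at least 2-fold higher and 1 lower. Without the filter limits the median was 0.25 over 18 genes, with 12 above 0. Pparg was at 166.2 and 126.7 CPM (−0.39, −0.75 to −0.03), Srebf1 at 228.3 and 196.2, and Cebpa at 305.3 and 452.4. Srebf2, the factor for cholesterol genes, was at 77 and 133.3. Lysosomal and nuclease genes had a median of −0.11 over 11 and basal keratinocyte genes −0.05 over 10. Without the filter limits these were 0.02 over 13 and 0.02 over 11.

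Actin cytoskeleton genes, the class the study ties to miR-205, had a median log2 ratio of −0.41 over 37 genes, with 33 below 0, 0 at least 2-fold higher and 5 at least 2-fold lower, beside 2.49% and 6% of all genes. The median was −0.11 over 48 genes in other kept cells and −0.13 over 45 in Krt79 cells. Within tertiles it was −0.33, −0.48 and −0.10, and without the filter limits −0.12. Actg1 was at 5891 and 4005 CPM. Of the 6 targets named by the study, Actb had a log2 ratio of −0.23 (−0.31 to −0.15), Actn4 −0.50 (−0.80 to −0.20), Ctnna1 −0.53 (−0.99 to −0.06), Rock2 −0.15 (−0.64 to 0.35), Piezo1 −0.27 (−1.33 to 0.83, from 33 UMIs in all) and Actn1 0.53 (−0.29 to 1.45). Directions depended on the cells taken: under 5% mitochondrial UMIs Actb was 0.56, Actn4 0.76 and Rock2 1.21, and Actb was 0.089 with at least 20 rule UMIs.

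Transcripts known to appear during tissue dissociation also differed. The 19 measured genes of that list had a median of −0.67 in sebaceous cells, against 0.30 over 20 genes in other kept cells. In sebaceous cells 1 was at least 2-fold higher and 8 lower, beside 2.49% and 6% of all genes. Fos was at 1278 and 488.1 CPM, with 49.15% of its control UMIs in 1 cell, and Junb at 564.7 and 243.1, whereas the heat shock genes Hspa8 (1098 and 1644) and Dnajb1 (91.9 and 189.6) were higher. The median was −0.20 without the filter limits. The part of dissociation in the actin difference was not tested. Cell cycle genes had a median of 0.62 over 6 measured genes, 1.53 over 12 without the filter limits, 0.16 over 12 from 20 UMIs, −0.13 over 4 with at least 10 rule UMIs and −0.07 over 4 without Pparg in the rule.

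**Figure D5:**
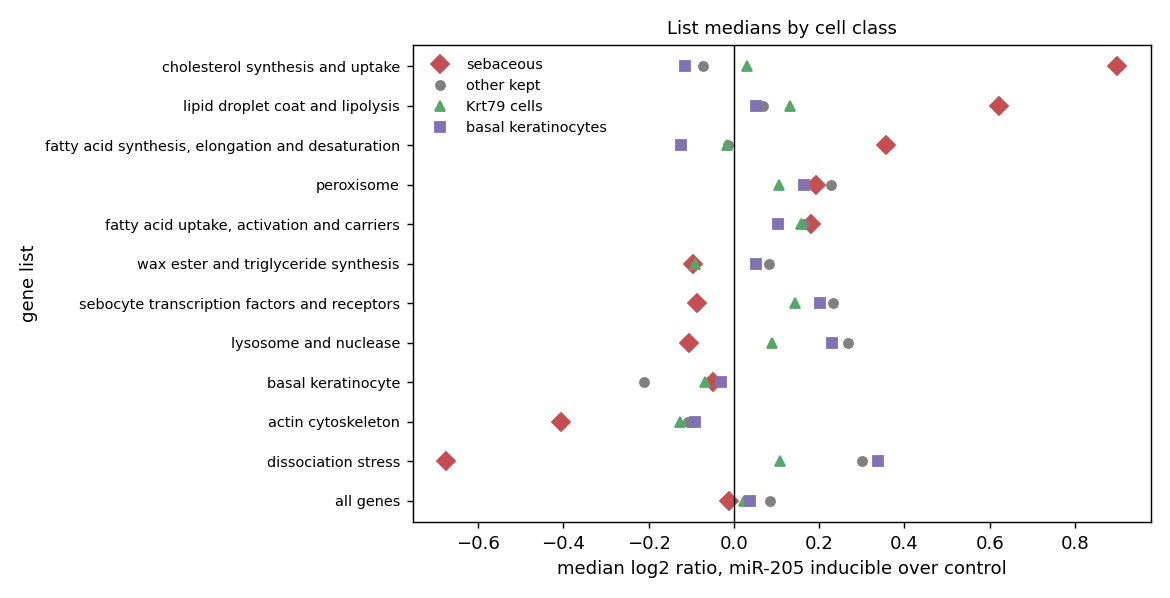
Median log2 ratio of inducible over control (x axis) for 11 gene lists and all genes (rows) in sebaceous cells, other kept cells, Krt79 cells and basal keratinocytes. The sebaceous point is at 0.90 for cholesterol and −0.67 for dissociation stress, apart from the other classes in both.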

How the data were processed

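Each library holds single-cell 3′ RNA from 1 mouse. The deposited values are raw UMI counts per gene and barcode, written by the authors with Cell Ranger (3.0.1 per the file headers) on mm10, 31053 features, without normalization. Kept cells, the marker rule and all lists were chosen with earlier results of these data known.

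Counts were summed over cells of a library and given as CPM. Log2 ratios used 0.5 added UMI for genes reaching 50 UMIs in all; at least 2-fold served as the line, since 1 library per group allows no test. Intervals are exact (Poisson, conditional binomial, Clopper-Pearson) or Newcombe, at 95%, and cover counting error only. Named genes were the 6 markers, 6 named targets, the 5 highest and 5 lowest ratios, the 15 highest against other cells, the 10 highest and 10 lowest between tertiles (each at 200 UMIs or more), up to 4 per list, Mki67, Top2a and the host transcript; others in the text were chosen after their values were seen. Krt79 cells had at least 5 Krt79 UMIs, basal keratinocytes at least 100 of Krt5 and Krt14 and fewer Krt79, both outside the rule. Thinning, other cell limits, rule thresholds, scalings, count minimums and Scrublet (scanpy 1.11.5) were alternatives. Ratios and intervals were tested on simulated data. Python 3.11.15, numpy 2.4.6 and scipy 1.17.1 were used. Gene positions and sequences are RefSeq GRCm38.p6. A few listed genes enter the counts and medians but are not reported here by name.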

Additional observations from a re-analysis of the deposited data

Results flagged for a closer look

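The median log2 ratio of inducible over control for 22 cholesterol synthesis and uptake genes was 0.90 in sebaceous cells, above 0, and −0.07 in the other kept cells, below 0. The difference between these cell classes was not tested. The dissociation stress list went opposite ways, with −0.67 in sebaceous cells and 0.30 in other kept cells, and this was not tested either.

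Outside the cell filter, 66 barcodes met the marker rule, 47 of control and 19 of inducible skin. Those of the inducible library held 52 Mki67 and 85 Top2a UMIs, against 2 and 3 in those of control, and summed cell cycle levels of 2232 and 275.2 CPM.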

How the results depend on the processing

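Of 701 alternative values for 48 results, 530 stayed within their tolerance, and 51 values over 21 results had the opposite sign, among them small ratios such as those of Cidea (7 settings), Far2 (4) and Actb (3). Dropping the limits on mitochondrial UMIs and genes, and leaving out the 5 singled-out cells, were settings chosen after seeing the data. No paired analysis was possible because each group has 1 mouse and no result comes from a test.

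Genes at least 2-fold higher in inducible cells (96) numbered 265 from 20 UMIs, 29 from 200 UMIs, 24 after thinning, 151 by the mean over cells, 63 with 20 rule UMIs and 63 under 5% mitochondrial UMIs. Those lower (231) numbered 497, 69 and 27 in the first 3 of these, 143 with 20 rule UMIs, 64 under 5%, 152 without the filter limits and 116 without the 5 cells. Between tertiles, the higher genes (388) numbered 253 with 10 rule UMIs, 173 with 20 and 50 under 5%, and the lower (360) 158, 99 and 62, with 703 from 20 UMIs and 180 without Pparg in the rule.

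The control share was 0.508% with 10 rule UMIs, 0.406% with 20, 1.78% without the filter limits and 0.244% under 5%. The inducible share was 0.689% with 20 and 0.433% under 5%. The difference was −0.234 points without the filter limits. Without those limits the median was 0.38 for cholesterol, −0.20 for dissociation stress, −0.061 for fatty acid and 0.13 for lipid droplet genes. After thinning, cholesterol was 1.253 and stress −1.02, and stress was −0.28 without Pparg. Under 5%, actin was −0.051, stress −2.42 and fatty acid 1.83. Without the 5 cells fatty acid was 0.69 and wax ester 1.01.

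Among ratios past 2-fold, those with the opposite sign under 5% were Awat2 2.71, Cyp2g1 −1.13, Hamp2 3.84, Scd3 5.87 and Serpinb6e 4.46. Without the 5 cells they were Awat2 1.30, Cd74 1.01, Hamp2 1.73, Scd3 5.33 and Serpinb6e 2.92. Cd74 was 1.60, 1.35 and 1.16, and H2-Aa 0.011, 0.012 and 0.065, with 10 rule UMIs, 20 rule UMIs and no Pparg. Scd3 was 0.22 by the mean over cells and 0.97 by the mean over tertiles. The under 5% values rest on 5 control and 8 inducible cells. Where not given by the cells left out, the cause was not tested.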
